A study of Mus musculus with 6 samples.

Results

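The 10 genes described here are the Notch receptors Notch1, Notch3 and Notch4, the ligands Dll4, Jag1 and Jag2, the target genes Hey1, Heyl and Hes1, and Rbpj, which encodes the DNA-binding partner of the cleaved receptor. They were chosen by gene symbol, and all 10 were found among the 32287 features of the count tables. Transcripts of single cells were counted in 6 libraries, each from 1 male mouse of 12 months. There were 3 untreated C57BL/6J mice (WT) and 3 untreated mice labelled AppArcSwe (ArcSwe), a model of Alzheimer's disease that carries a human APP transgene with the Arctic and Swedish mutations and was included in the study for its vascular amyloid. The promoter that drives the transgene is not given in the sources used here. A single hemisphere of the cerebrum was digested, microvessel fragments were captured with CD31-coated beads, and the fragments were digested again to single cells. The comparison between genotypes asked whether transcription in the vessel wall differs between this model and WT.

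Notch receptors are single-pass membrane proteins that are activated by a ligand on a neighbouring cell. Cleavage by the gamma-secretase complex then frees the intracellular part of the receptor, which enters the nucleus and joins RBPJ on DNA to switch on genes such as those of the Hes and Hey repressors. In blood vessels, Dll4, Notch1 and Notch4 are known for their part in arterial specification of the endothelium, and Jag1 on endothelium signals to Notch3 on the mural cells around it. Mutations of NOTCH3 cause the human small vessel disease CADASIL.

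In GRCm38 coordinates the receptor genes lie at chr2:26457903-26516663 on the minus strand (Notch1), chr17:32120820-32166852 on the minus strand (Notch3) and chr17:34564268-34588503 on the plus strand (Notch4). The ligand genes lie at chr2:119325784-119335962 on the plus strand (Dll4) and, on the minus strand, at chr2:137081456-137116644 (Jag1) and chr12:112907819-112929776 (Jag2). The target genes lie at chr3:8663359-8667256 on the minus strand (Hey1), chr4:123233556-123249875 on the plus strand (Heyl) and chr16:30064384-30067796 on the plus strand (Hes1), and Rbpj lies at chr5:53466152-53657362 on the plus strand. All 10 are annotated as protein coding.

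RefSeq promoter sequences (GRCm38.p6) were matched for 7 of the 10 genes, in 8 windows. The 250 bases upstream of the start site are shown for the ligands Dll4 and Jag1, which were highest in arterial endothelium, for Notch3, the receptor of the mural cells, and for Rbpj, which every vascular class expressed. Capitals mark, on either strand, the hexamer TGGGAA, the core known to be bound by RBPJ, and the hexamers CACGTG and CACGCG, which Hes and Hey proteins are known to bind. The windows are chr2:119325534-119325783 on the plus strand for Dll4, chr2:137116521-137116770 on the minus strand for Jag1, chr17:32166891-32167140 on the minus strand for Notch3 and chr5:53590096-53590345 on the plus strand for Rbpj, each printed 5′ to 3′ on the gene's strand.
Dll4: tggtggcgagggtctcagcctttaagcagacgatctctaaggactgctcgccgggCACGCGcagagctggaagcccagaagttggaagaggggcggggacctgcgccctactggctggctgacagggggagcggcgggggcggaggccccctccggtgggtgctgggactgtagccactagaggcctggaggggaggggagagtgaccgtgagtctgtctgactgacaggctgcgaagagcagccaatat
Jag1: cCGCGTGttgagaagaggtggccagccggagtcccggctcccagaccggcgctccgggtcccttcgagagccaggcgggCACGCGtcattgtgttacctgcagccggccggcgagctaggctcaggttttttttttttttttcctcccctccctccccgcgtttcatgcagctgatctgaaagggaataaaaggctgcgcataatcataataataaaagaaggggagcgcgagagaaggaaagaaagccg
Notch3: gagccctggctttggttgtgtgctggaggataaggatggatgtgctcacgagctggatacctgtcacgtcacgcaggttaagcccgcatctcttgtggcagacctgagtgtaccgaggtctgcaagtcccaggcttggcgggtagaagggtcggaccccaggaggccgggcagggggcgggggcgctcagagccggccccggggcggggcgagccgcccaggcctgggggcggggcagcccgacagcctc
Rbpj: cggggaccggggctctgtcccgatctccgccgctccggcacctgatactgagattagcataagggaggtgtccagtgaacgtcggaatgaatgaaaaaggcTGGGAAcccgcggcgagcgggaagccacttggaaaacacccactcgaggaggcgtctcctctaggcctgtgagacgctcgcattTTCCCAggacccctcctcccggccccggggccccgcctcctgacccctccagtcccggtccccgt
Read on both strands, the Dll4 window held 1 match to CACGCG or CGCGTG and the Jag1 window held 2. The Rbpj window held 2 matches to TGGGAA or TTCCCA, and the Notch3 window held none of these hexamers. The Rbpj window lies inside the span given above for that gene, upstream of an internal start site. A second Rbpj window, which overlaps it and is not shown, held 1 match to TGGGAA or TTCCCA. Of 32851 promoter windows of the same length, 7.62% held CACGCG or CGCGTG, 21.6% held TGGGAA or TTCCCA, and 6.02% held CACGTG. These matches describe letters in the windows only.

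The 6 libraries held 49059 cells, of which 44112 were kept, at a median of 2922 to 5542 transcript molecules (unique molecular identifiers, UMIs) per kept cell. Cells were clustered without the Notch genes and named as arterial-like, capillary-like and venous-like endothelial cells, smooth muscle-like cells and pericyte-like cells from marker lists, and these names are used here without the suffix. The classes held 4712 arterial, 17833 capillary and 935 venous endothelial cells, 3143 smooth muscle cells and 341 pericytes. In the thinnest library of each class there were 286, 1245, 42, 192 and 14 cells, in the same order. WT mouse 3 stood apart in 8 immediate early genes (Fos, Jun, Junb, Jund, Fosb, Egr1, Atf3 and Ier2, chosen after their values were seen), which dissociation of tissue is known to raise. Their summed level in endothelial cells was 11559 CPM (UMIs of a gene scaled to a common total per library) in that mouse and 22577 to 29314 in the other 5. ArcSwe mouse 3 stood apart in its capillary cells. Of these, 75.1% fell in the mid-capillary zone, against 43.4% to 48.6% in the other 5 mice. This mouse gave 1413 of 2569, 978 of 1329 and 610 of 681 cells in some of the mid-capillary clusters. Libraries were clustered together without integration, and its part in these shares was not tested. Both mice numbered 3 stood apart in transcripts of other cells, with 4 erythroid genes at 326 and 452 CPM in endothelial cells against 36.4 to 65.1 in the other 4 mice, and 8 microglial markers at 517 and 683 against 161 to 325. Of the kept cell barcodes, 235 occurred in more than 1 library, at 3 to 33 per pair of libraries.

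A level below is the CPM of a gene, with the UMIs of all genes kept for testing as the total, from the cells of a class summed within each mouse. Levels are set side by side between classes for the same gene only. The classes are clusters of these same cells, so differences between them are given as descriptions, with no test. The 10 genes fell into 3 patterns. Dll4, Notch4, Jag2 and Hey1 were endothelial and highest in arteries. Notch3 and Heyl were mural. Notch1, Jag1, Hes1 and Rbpj had a mean of at least 52.4 CPM in each of the 5 classes.

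**Figure D1:**
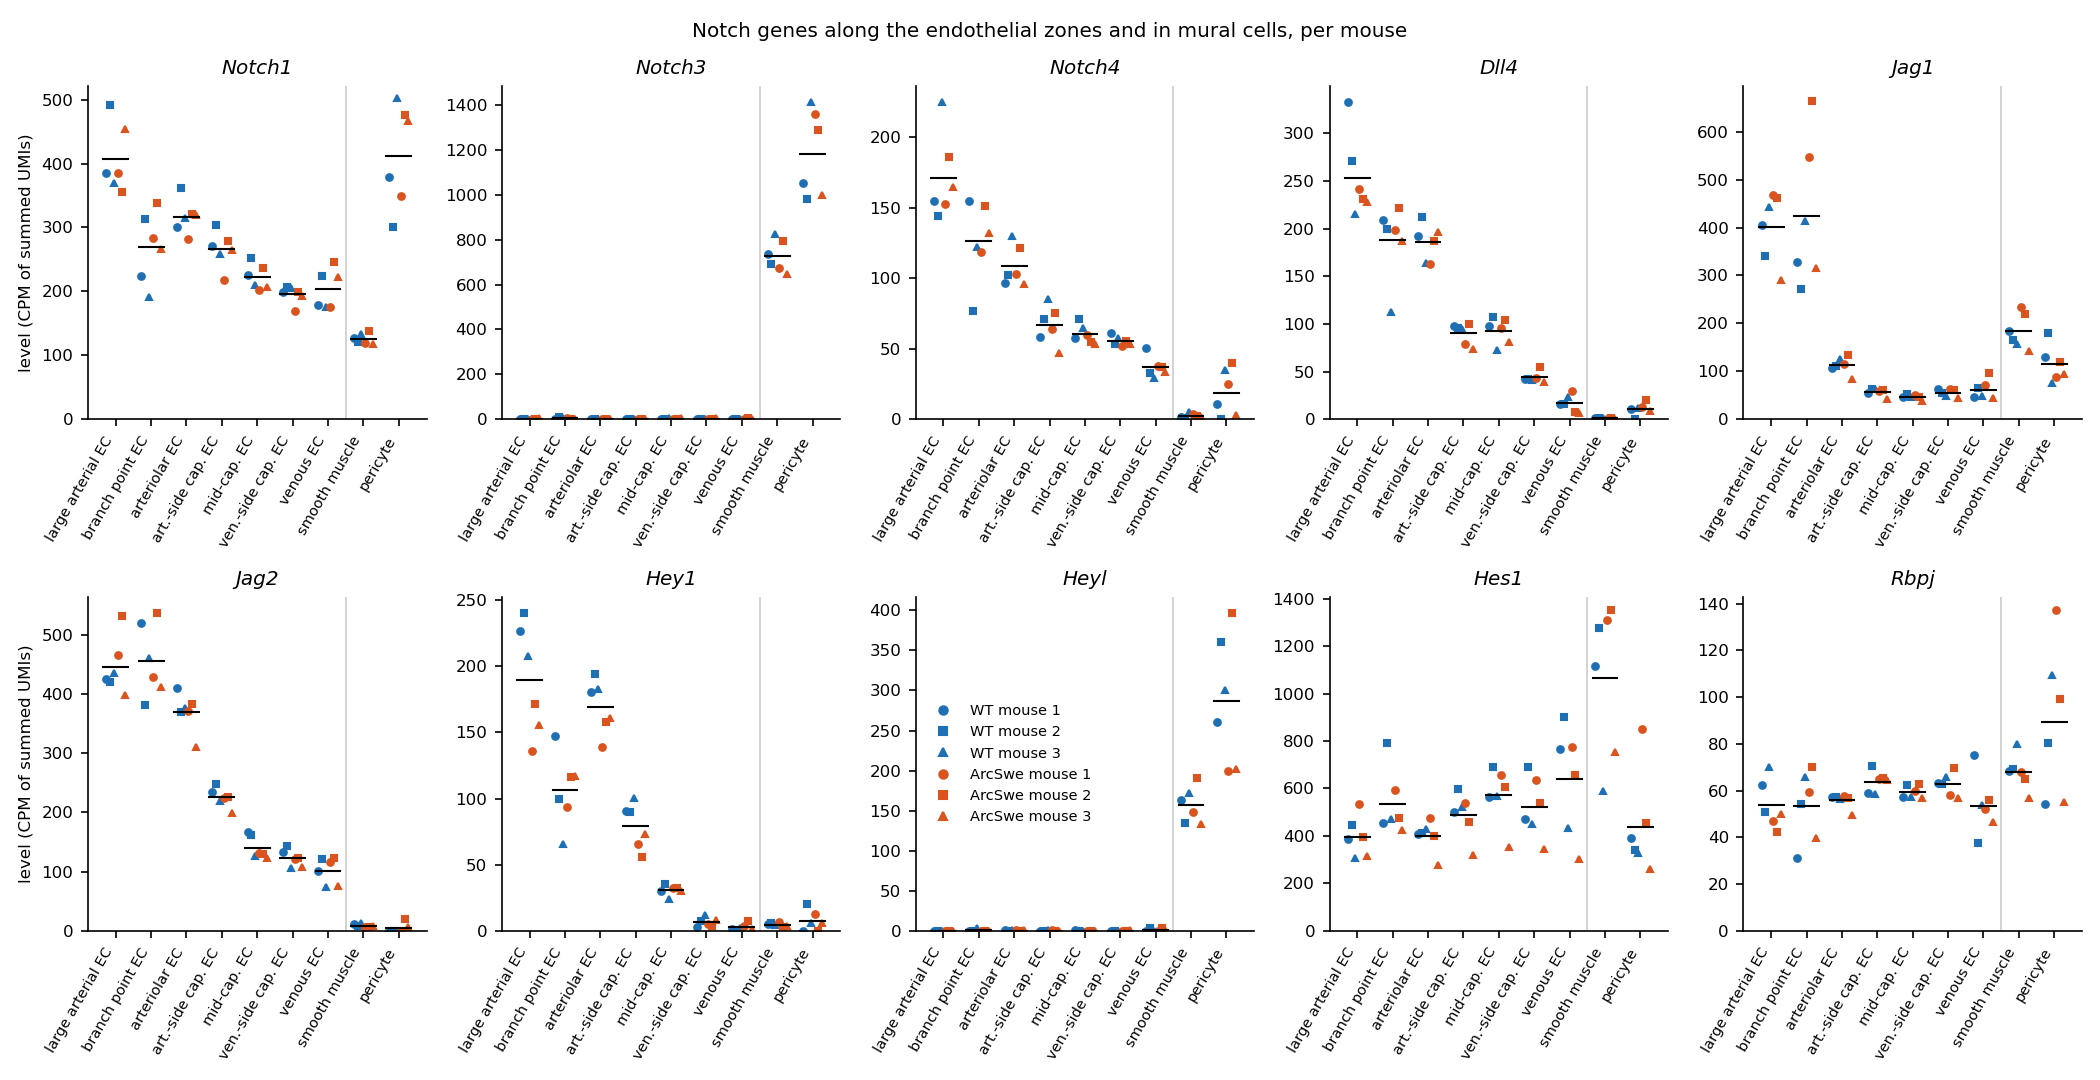
Level of each of the 10 genes (CPM of UMIs summed per mouse) in 7 endothelial zones ordered from large arteries to veins, then in smooth muscle cells and pericytes. Each point is 1 mouse (WT blue, ArcSwe orange, shape gives the mouse number) and bars are means over 6 mice. Dll4 has a mean of 253 in large arterial endothelium and 16.6 in veins, while Notch3 and Heyl stay near 0 in every endothelial zone.

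Notch1, the widely used endothelial receptor, had a mean level of 334 ± 25.7 CPM (SD, n = 6 mice) in arterial, 228 ± 22.8 in capillary and 204 ± 31.1 in venous endothelial cells. Its level in pericytes was 412 ± 80.6, with a lowest mouse at 301, a median of 423 and a highest at 502. The smooth muscle level was 126 ± 8.28, between 118 and 138. Smooth muscle cells were therefore the class with the least Notch1 in each of the 6 mice, below both endothelium and pericytes, at 0.306 times the pericyte mean. Pericytes and arterial cells overlapped, as did capillary and venous cells. Along the endothelium the mean level fell from 407 in large arteries through 317 in arterioles, 266 in arterial-side capillaries and 223 in mid-capillaries to 195 in venous-side capillaries, and each of these zones was lower than the one before in 6 of 6 mice.

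Notch3, the mural receptor, had a level of 1183 ± 193 CPM in pericytes (lowest 982, median 1170, highest 1414) and 729 ± 70.8 in smooth muscle cells (lowest 647, median 715, highest 826). The 2 ranges did not overlap, and smooth muscle cells were lower in 6 of 6 mice. In arterial, capillary and venous endothelial cells the mean was 2.20, 2.11 and 2.42, from 55, 145 and 11 UMIs in all. For all endothelial cells that is 0.291% of the smooth muscle level, and 6 general mural markers measured in the same way reached 0.171% to 3.39%, with a median of 0.719%. The endothelial Notch3 value was therefore no higher than the mural transcripts found in those cells in general. The reference used for counting also held human NOTCH3, to which 0 UMIs were assigned, against 11513 for the mouse gene over the 5 vascular classes, fenestrated endothelial cells and microglia.

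Notch4, a receptor known for its restriction to endothelium, was at 125 ± 17.0 CPM in arterial, 61.0 ± 6.12 in capillary and 36.8 ± 7.28 in venous endothelial cells. Arterial cells were higher than venous cells in 6 of 6 mice, at a ratio of the means of 3.39. The level was 171 in large arteries and 108 in arterioles, with no overlap between the 2 zones, and then lay between 55.5 and 66.9 in the 3 capillary zones. The capillary zones overlapped with each other, so the decline of Notch4 was stepped, from large arteries to arterioles, at the entry to the capillaries and again at the veins. In smooth muscle cells it was 2.49 ± 1.46, and in pericytes 18.9 ± 16.7 from only 12 UMIs.

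Of the ligands, Dll4 was the most graded. Its level was 202 ± 21.7 CPM in arterial, 79.0 ± 8.79 in capillary and 16.6 ± 8.86 in venous endothelial cells (89 UMIs in veins), with no overlap between any 2 of these classes. Arterial cells stood at 12.2 times the venous mean. By zone, Dll4 was lower in 6 of 6 mice in arterioles (186) than in large arteries (253), and lower again in arterial-side capillaries (90.2). Arterial-side and mid-capillaries then did not separate, at 90.2 and 93.0. It was lower again in 6 of 6 mice in venous-side capillaries (43.9) and in veins (16.6).

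Jag1, the ligand shared by endothelium and smooth muscle, was at 205 ± 42.8 CPM in arterial endothelial cells (lowest 152, median 214.5, highest 252), 184 ± 36.0 in smooth muscle cells and 114 ± 38.1 in pericytes. Capillary and venous endothelial cells were at 52.4 ± 6.26 and 62.0 ± 20.4, below the range of arterial cells. Within the arterial tree Jag1 was split by vessel size. It reached 401 ± 72.1 in large arterial cells and 424 ± 153 in branch point cells, the endothelium at arterial branchings, and only 113 ± 17.8 in arterioles. Large arterial cells lay above arteriolar cells in 6 of 6 mice (3.56 times), and so did branch point cells (3.76 times), with no overlap in either case. Branch point cells numbered 13 to 90 per mouse.

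Jag2, the other Jagged ligand, followed the endothelial order with 394 ± 32.3 CPM in arterial, 160 ± 22.8 in capillary and 102 ± 22.4 in venous cells, with no overlap between neighbours. It was at 446 in large arteries, 456 in branch point cells and 370 in arterioles, so the drop between large arteries and arterioles that Jag1 showed was 1.21 times for Jag2. It was lower in 6 of 6 mice in arterial-side capillaries (225) than in arterioles, and lower again in mid-capillaries (140.0). In smooth muscle cells Jag2 was at 8.63 ± 3.07 from 127 UMIs, and in pericytes 3 UMIs were counted in all.

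Hey1, a transcriptional repressor and Notch target known from arterial endothelium, had the largest ratio of arterial to venous means among the 10 genes, at 63.4. Its level was 169 ± 23.1 CPM in arterial and 38.6 ± 8.81 in capillary endothelial cells, and 11 UMIs in the 935 venous cells gave 2.67 ± 2.59. Branch point cells were lower in Hey1 (107) than large arterial (190) and arteriolar (169) cells, and below arteriolar cells in 6 of 6 mice. This is the opposite of Jag1, which branch point cells held at a level like that of large arteries. Along the capillaries Hey1 was at 79.1 in arterial-side, 30.7 in mid- and 6.58 in venous-side cells, each zone lower than the one before in 6 of 6 mice and without overlap.

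Heyl, the related repressor of mural cells, was at 287 ± 81.3 CPM in pericytes (lowest 199.7, median 280.1, highest 396) and 157 ± 22.5 in smooth muscle cells (lowest 133, median 156, highest 191). Pericytes were higher in 6 of 6 mice, as for Notch3. Endothelial cells gave only 7, 14 and 4 Heyl UMIs in the arterial, capillary and venous classes. Over 30 sums (5 classes in 6 mice), Notch3 was the gene whose log2 level was most like that of Heyl.

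Hes1, a repressor that many signals besides Notch induce, did not follow the arterial order. It was at 409 ± 66.9 CPM in arterial, 532 ± 108 in capillary and 640.0 ± 227 in venous endothelial cells, and arterial cells were lower than venous cells in 6 of 6 mice. Smooth muscle cells had 1067 ± 320 and pericytes 438 ± 212, with smooth muscle higher in 6 of 6 mice. The spread between mice was wide, from 590 to 1351 in smooth muscle cells and from 303 to 900 in veins, so that neighbouring classes overlapped.

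Rbpj, the common effector, was nearly flat across the vessel wall, at 55.1 ± 3.75 CPM in arterial, 61.7 ± 3.28 in capillary and 53.6 ± 12.5 in venous endothelial cells, 67.9 ± 7.40 in smooth muscle cells and 89.3 ± 32.5 in pericytes. All neighbours in the order of the means overlapped. Microglia, which were captured alongside the vessels, had more, at 159 ± 38.0 (118 to 208). Of the other genes, Notch1 stood at 66.5 ± 19.6 and Hes1 at 93.1 ± 38.9 in microglia.

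Droplets share free RNA, and the low levels above have to be read beside it. In microglia, 10 endothelial markers stood at 10.3% to 12.4% of their endothelial level, and Hey1 (10.2%), Dll4 (9.77%) and Jag1 (9.48%) were at or just below that range. Jag2 at 14.6%, Notch4 at 15.5% and Notch1 at 26.4% were above it. In smooth muscle cells the same markers stood at 0.649% to 32.2%, with a median of 0.846%. The top of that range was Esam, and the next marker was Egfl7 at 1.71%. Dll4 (1.06%) was above the median there and below Egfl7. Notch4 (3.32%), Jag2 (4.06%) and Hey1 (6.98%) were above every marker but Esam. These percentages are of the mean over all endothelial cells, and these genes were highest in arteries. Against arterial endothelial cells alone, the smooth muscle means of Notch4, Jag2 and Hey1 were 0.020, 0.022 and 0.028 times the arterial means. In pericytes the markers ran from 0.637% to 55.7%, with Esam at the top, Flt1 next at 4.35% and a median of 1.87%. Notch4 (25.1%), Hey1 (10.9%) and Dll4 (10.1%) were above every marker but Esam there, and Jag2 was at 2.04%. The pericyte values of Notch4 and Jag2 rest on the few UMIs given above. Against arterial endothelial cells alone, the pericyte means of Notch4, Hey1 and Dll4 were 0.151, 0.044 and 0.053 times the arterial means. What part of the mural Hey1, Jag2 and Notch4 counts came from endothelial RNA was not tested.

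For each gene, the 3 genes most like it were taken by Pearson's correlation of log2(CPM + 1) over the same 30 sums, among 10833 genes with a mean of at least 5 CPM. The sums share libraries and differ in depth, and the values are descriptions. Notch3 was closest to S1pr3 (r = 0.995), Cspg4 (0.995) and Ednra (0.994). These encode a sphingosine phosphate receptor, a proteoglycan of mural cells and the endothelin receptor of smooth muscle. Cspg4 was one of the mural markers used to name cells. Dll4 was closest to Slc9a3r2 (0.940), Ltbp4 and Myl12b (both 0.935), and Notch4 to Shroom4 (0.943), Ltbp4 (0.942) and Card10 (0.931). Heyl was closest to Notch3 (0.993), Gfra2 (0.990) and Limd1 (0.988). Hey1 was closest to Islr2 (0.897), Cdh13 (0.896) and Gnas (0.894), and Cdh13 was one of the arterial markers used to name cells. Jag1 was less closely matched, with Atp2b4 at 0.858, S100a11 at 0.850 and Col8a1 at 0.833. Hes1 and Rbpj had the weakest likenesses, with Vezf1 at 0.822 for Hes1 and Ptpa at 0.812 for Rbpj.

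The genotype comparison summed UMIs per mouse and class and was tested with edgeR's quasi-likelihood test over all genes of the class, with Benjamini-Hochberg adjustment and a threshold of 0.05. None of the Notch genes passed it in any class, and no other gene did. This was 0 of 9 tested in all endothelial cells together (arterial, capillary and venous), 0 of 8 in arterial, 0 of 9 in capillary and 0 of 7 in venous cells, 0 of 8 in smooth muscle cells and 0 of 5 in pericytes, where the background of genes called was 0% in each case. DESeq2 called 0 of the 10 genes in each of these 6 classes, against a background of 0.0548% of genes in all endothelial, 0.0569% in arterial and 0.0658% in capillary cells and 0% in the other 3 classes. At an unadjusted p under 0.05, edgeR found 1 of the 10 (Hey1) in all endothelial cells where 4.44% of all genes passed, 1 (Hey1) in arterial cells against 3.96% and 1 (Hey1) in capillary cells against 4.86%. It found 0 in venous cells against 3.61%, 1 (Jag2) in smooth muscle cells against 4.28% and 0 in pericytes against 2.59%.

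**Figure D2:**
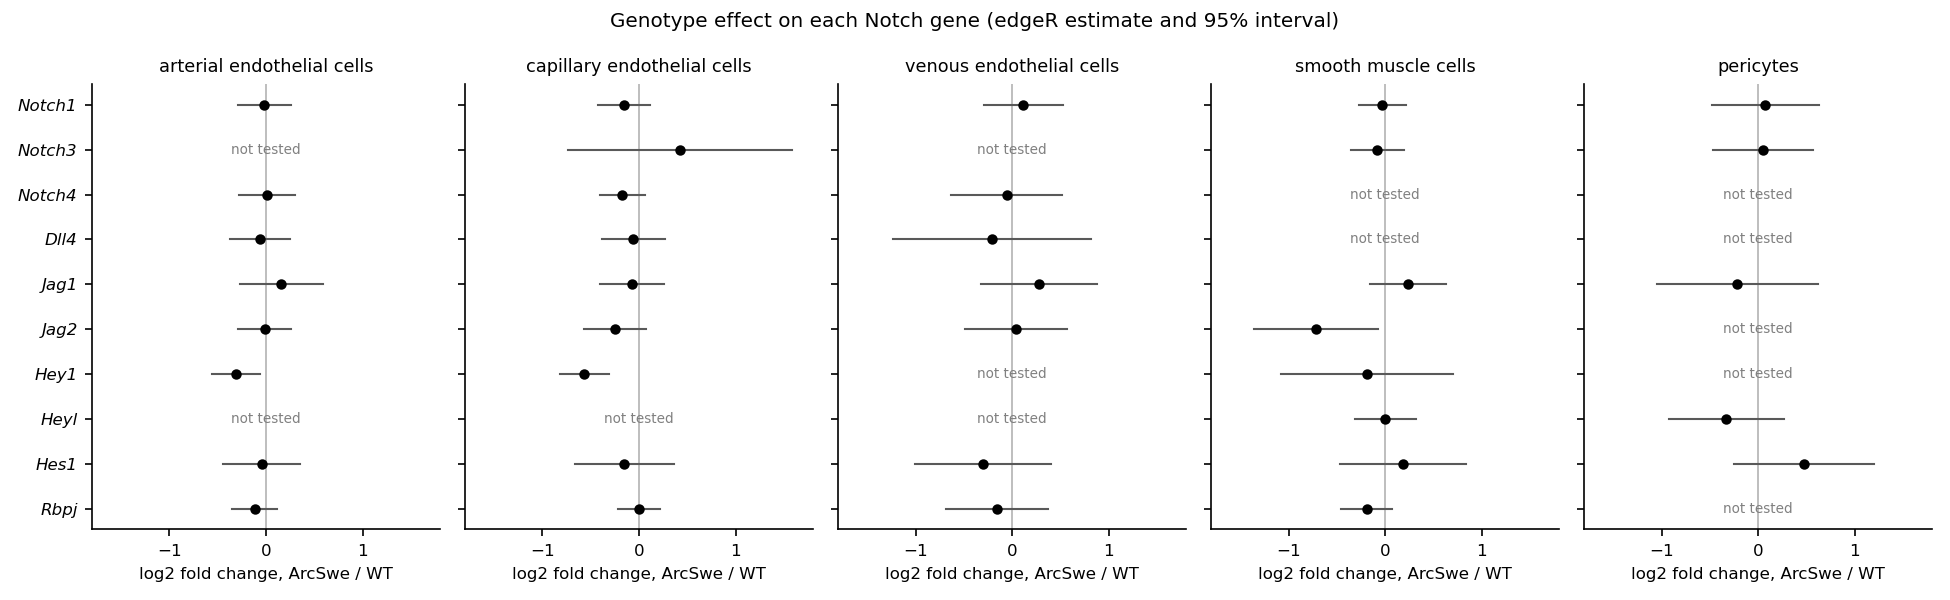
Log2 fold change (ArcSwe over WT) of each of the 10 genes with its 95% interval from edgeR, by cell class, where a gene that did not reach the minimum count is marked as not tested. In the 5 classes plotted most intervals include 0, and the exceptions are Hey1 in arterial and capillary endothelial cells and Jag2 in smooth muscle cells, all of which were past 0.05 only before adjustment.

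Some of the Notch genes tested had WT and ArcSwe values that did not overlap. In all endothelial cells this was 1 of 9 (Hey1), where 10.2% of all genes did not overlap. It was 2 of 8 in arterial cells (Hey1 and Rbpj, 9.72% of all genes) and 1 of 9 in capillary cells (Hey1, 11.1%). In venous cells it was 0 of 7 (9.04%). Smooth muscle cells had 2 of 8 (Jag2 and Rbpj, 9.85%) and pericytes 0 of 5 (8.29%). Of the 9 Notch genes tested in all endothelial cells the median log2 fold change was -0.08, with 2 above 0 and 7 below, against -0.0034 over all genes. In capillary cells it was -0.15, with 1 above 0 and 8 below, against -0.0022 over all genes. The medians were -0.03 in arterial cells (2 above and 6 below), -0.06 in venous cells (3 and 4), -0.06 in smooth muscle cells (3 and 5) and 0.05 in pericytes (3 and 2), where those over all genes lay between -0.013 and -0.0003. Of the 10 genes, 9 passed the filter on low counts in endothelial cells, and Heyl did not. Notch1, Notch4, Dll4, Jag1, Jag2 and Hey1 were higher in arterial than in capillary cells. The arterial marker sum of capillary cells was 513 to 627 CPM in WT and 402 to 447 in ArcSwe mice. The part of zone make-up in the capillary values was not tested.

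Among the Notch genes tested, Hey1 had the lowest p in all endothelial cells together, in arterial cells and in capillary cells. In capillary cells its level was 45.8, 50.1 and 42.9 CPM in the 3 WT mice and 32.3, 28.5 and 32.0 in the 3 ArcSwe mice. All 3 ArcSwe mice lay below all 3 WT mice. The log2 fold change was -0.57 (SE 0.11, 95% interval -0.82 to -0.31), with an adjusted p of 0.705 by edgeR (unadjusted 0.00083) and 0.0724 by DESeq2, and neither passed. In arterial cells Hey1 was at 191, 195 and 178 CPM in WT and 134, 160 and 157 in ArcSwe mice (log2 fold change -0.31, SE 0.11, edgeR adjusted p = 1.00). In all endothelial cells together the log2 fold change was -0.36 (SE 0.10, edgeR adjusted p = 0.995), and without the 2 mice numbered 3 it was -0.51 (SE 0.08, edgeR adjusted p = 0.183).

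Hey1 was also read within the capillary zones, with no test of the difference between zones. In arterial-side capillaries the level was 90.5, 89.6 and 100.2 CPM in WT and 65.8, 55.5 and 73.1 in ArcSwe mice, and in mid-capillaries 30.4, 35.5 and 23.8 against 32.2, 32.0 and 30.4. The log2 fold change was -0.50 (SE 0.12) in the first zone, where the genotypes did not overlap, and 0.08 (SE 0.17, 95% interval -0.30 to 0.46) in mid-capillaries, where they did, by edgeR on the zones fitted after the data were seen. In venous-side capillaries it was -0.35 (SE 0.45, 95% interval -1.35 to 0.65) from 123 UMIs, an interval that holds both of the other values. The summed level of 7 arterial markers in capillary cells was 513 to 627 CPM in WT and 402 to 447 in ArcSwe mice, again without overlap. Arterial-side cells made up 37.3%, 38.4% and 29.1% of capillary cells in WT and 28.2%, 28.3% and 12.7% in ArcSwe mice. Within the arterial-side zone the same marker sum was 1015 to 1577 in WT and 1122 to 1147 in ArcSwe mice and overlapped. In the mid-capillary zone it was 243 to 265 in WT and 261, 269 and 319 in ArcSwe mice. The part that the zone make-up of the capillary cells had in the Hey1 difference was not tested beyond these values. Zones were fitted at clustering resolution 1 only, without integration of libraries. How far the zone values depend on this assignment of cells was not tested.

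**Figure D3:**
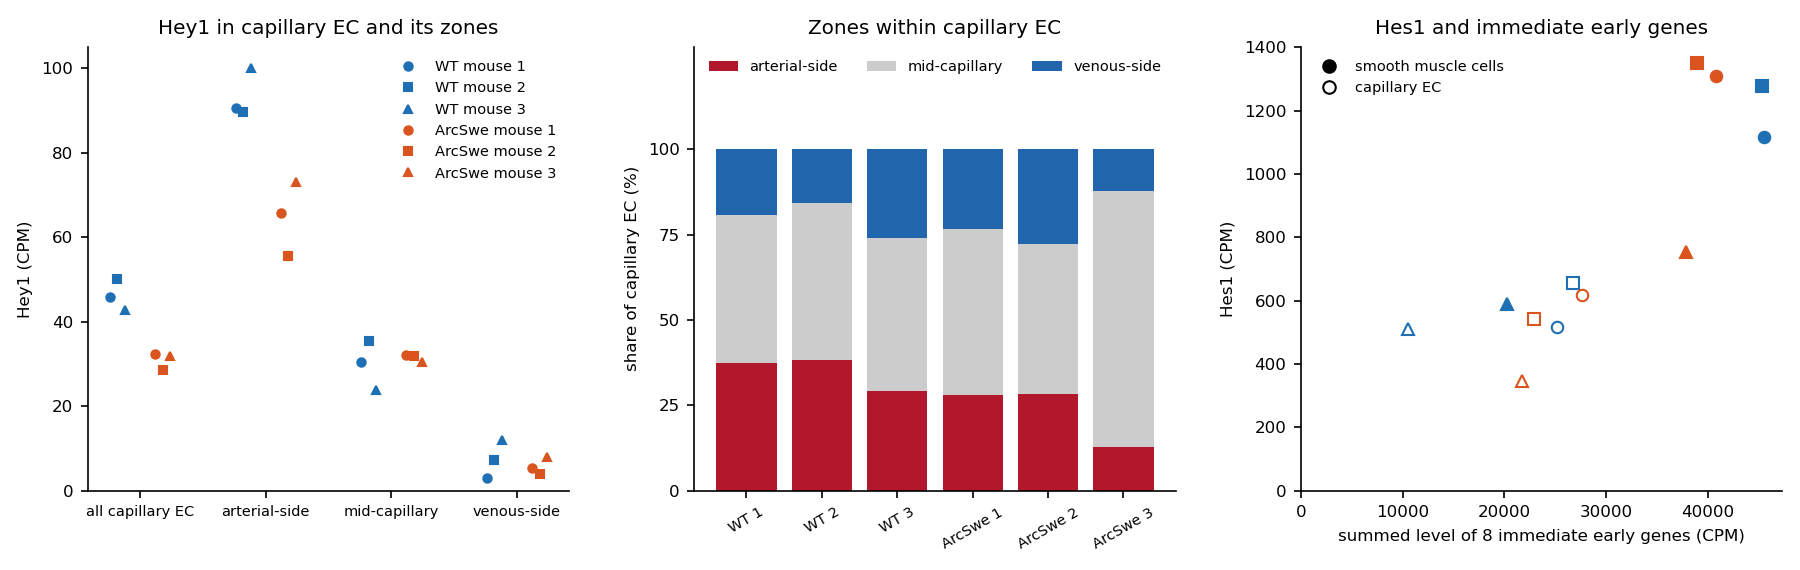
Left, Hey1 level (CPM) per mouse in all capillary endothelial cells (EC) and their 3 zones; middle, share of the 3 zones among capillary cells of each mouse (%); right, Hes1 level (CPM) against the summed level of 8 immediate early genes (CPM) in smooth muscle cells (filled) and capillary cells (open). ArcSwe points (orange) lie below WT points (blue) for Hey1 in arterial-side capillaries and overlap them in mid-capillaries, and WT mouse 3 is lowest on the horizontal axis in both cell types.

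Large arterial and arteriolar cells were also fitted alone. Hey1 was at 227, 240.1 and 208 CPM in WT and 136, 171 and 156 in ArcSwe large arterial cells (log2 fold change -0.52, SE 0.15, edgeR adjusted p = 1.00), and its log2 fold change in arteriolar cells was -0.27 (SE 0.11). In both zones the 95% interval, which is not adjusted for the number of genes, left out 0. The arterial marker sum of arterial cells overlapped between the genotypes, at 3873 to 5524 CPM in WT and 4211 to 5142 in ArcSwe mice.

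Hes1 spread widely between mice. In smooth muscle cells it was at 1117, 1277 and 590 CPM in the WT mice and 1310, 1351 and 755 in the ArcSwe mice, so the lowest mouse of each genotype was number 3. The genotypes overlapped, with a log2 fold change of 0.18 (SE 0.30, 95% interval -0.47 to 0.83, edgeR). The summed immediate early genes in those cells were 45565, 45357 and 20257 CPM in WT and 40824, 38912 and 37900 in ArcSwe mice. WT mouse 3 was the lowest of the 6 in both measures, and without it the log2 fold change of Hes1 was -0.12. In capillary endothelial cells Hes1 was at 517, 656 and 511 CPM in WT and 619, 542 and 345 in ArcSwe mice (log2 fold change -0.15, SE 0.22). Both mice numbered 3 also had the most erythroid transcripts in smooth muscle cells (4 genes summed, 261 and 463 CPM against 13.6 to 52.4 in the other 4 mice) and the most microglial transcripts (8 markers summed, 547 and 654 against 158 to 273). Without both of them the log2 fold change of Hes1 in smooth muscle cells was 0.11 (SE 0.10). The part of these transcripts and of the immediate early genes in the Hes1 levels was not tested.

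The ligand Jag2 in smooth muscle cells was at 11.2, 7.86 and 13.4 CPM in WT and 5.58, 6.05 and 7.67 in ArcSwe mice. The 2 genotypes did not overlap, though the nearest mice were 7.86 and 7.67 and the counts were few. Its log2 fold change was -0.72 (SE 0.29, 95% interval -1.36 to -0.07, edgeR adjusted p = 0.999). Rbpj was at 68.3, 69.1 and 79.9 CPM in WT and 67.8, 65.0 and 57.0 in ArcSwe smooth muscle cells, with a log2 fold change of -0.19 (95% interval -0.46 to 0.08). In arterial endothelial cells it was at 56.7, 55.9 and 60.4 CPM in WT and 54.8, 53.8 and 49.1 in ArcSwe mice, with a log2 fold change of -0.12 (95% interval -0.36 to 0.12).

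The receptor and target of mural cells did not separate the genotypes. Notch3 in smooth muscle cells was at 736, 693 and 826 CPM in WT and 673, 796 and 647 in ArcSwe mice, with a log2 fold change of -0.08 (95% interval -0.36 to 0.19). In pericytes it was at 1052, 982 and 1414 in WT and 1360, 1288 and 999.9 in ArcSwe mice (0.05, 95% interval -0.47 to 0.57). Heyl gave 164, 135 and 171 CPM in WT and 148, 191 and 133 in ArcSwe smooth muscle cells, a log2 fold change of 0.0020 (95% interval -0.31 to 0.32). In pericytes Heyl gave 260.2, 361 and 300.1 against 199.7, 396 and 202 (log2 fold change -0.33, 95% interval -0.93 to 0.27), and Hes1 390.3, 341 and 329 against 849, 456 and 261 (0.47, 95% interval -0.25 to 1.20). The smallest of these pericyte sums came from 14 cells. Leaving out 1 mouse turned the sign of Notch3 (-0.05 without WT mouse 2) and of Hes1 (-0.12 without ArcSwe mouse 1) in pericytes.

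The receptors and ligands of endothelium overlapped between genotypes in arterial cells. Notch1 was at 318, 379 and 317 CPM in WT and 311, 331 and 349 in ArcSwe mice, Dll4 at 232, 220.3 and 171 against 188, 199.9 and 204, and Jag1 at 203, 158 and 226 against 252, 243 and 152. Their log2 fold changes were -0.02, -0.06 and 0.16. In veins, where 42 to 265 cells a mouse were summed, the log2 fold changes of the 7 genes tested ran from -0.30 to 0.28 and every interval included 0.

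The difference between classes in the genotype effect was tested with the mouse as a block. Between arterial and venous endothelial cells, 0 of 8 Notch genes differed, against 0.0851% of all genes called by edgeR. Between smooth muscle cells and pericytes, 0 of 10 differed, against 0.0194%. Only 5 of the 10 passed the low-count filter in pericytes alone. In the joint fit the SE was 1.28 for Notch4, 1.58 for Dll4, 1.63 for Hey1 and 3.56 for Jag2. Spreads this wide cannot decide whether these genes differed. At an unadjusted p under 0.05, edgeR found 0 Notch genes in either comparison, against 5.07% and 3.76% of all genes. The lowest p of a Notch gene was 0.102 in the first (Hey1, difference of log2 fold changes -1.48, SE 0.88, edgeR adjusted p = 0.960, from 11 venous UMIs) and 0.0702 in the second (Jag2, edgeR adjusted p = 1.00, from 3 pericyte UMIs).

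A list of 56 other genes of the pathway was read the same way, and all 56 were found. It covers the remaining receptor, other ligands, glycosyltransferases, ligand endocytosis, receptor processing, inhibitors, the nuclear complex and further targets. None passed the adjusted threshold in any class, of 47 tested in all endothelial cells (27 above 0 and 20 below), 43 in arterial cells (26 and 17), 46 in capillary cells (27 and 19), 40 in venous cells (19 and 21), 42 in smooth muscle cells (19 and 23) and 11 in pericytes (2 and 9). At an unadjusted p under 0.05 there were 1, 2, 3, 1, 1 and 0, in the same order, where 4.44%, 3.96%, 4.86%, 3.61%, 4.28% and 2.59% of all genes passed. Notch2, the remaining receptor, had the lowest p of the list in all endothelial cells together, in arterial cells and in capillary cells. In capillary cells it was at 16.2, 16.5 and 19.5 CPM in WT and 21.5, 22.2 and 20.6 in ArcSwe mice, with all ArcSwe mice above all WT mice and a log2 fold change of 0.31 (SE 0.10, edgeR adjusted p = 0.958). In arterial cells Notch2 was at 10.1, 12.9 and 12.7 CPM against 15.4, 20.1 and 15.0 (log2 fold change 0.48, SE 0.20).

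Of the genes of the list with the 3 lowest p in a class, those for processing or modification of the receptor had log2 fold changes of 0.18 (Pofut1, which adds fucose to Notch) and 0.16 (Mfng, a fringe enzyme) in all endothelial cells, and of 0.28 (Ncstn, a subunit of gamma-secretase) and 0.41 (Lfng, another fringe enzyme) in arterial cells. These were picked by their p. In all endothelial cells 6 of the 10 processing genes and 4 of the 5 glycosyltransferases tested lay above 0, with medians of 0.0028 and 0.09. In arterial cells these were 8 of 9 and 3 of 5, with medians of 0.09 and 0.10. In capillary cells Pofut1 had 0.27 and Efnb2, an arterial membrane ligand and Notch target, -0.20. Efnb2 was at 68.2, 66.6 and 67.2 CPM in WT and 59.0, 60.7 and 54.5 in ArcSwe capillary cells, without overlap. In capillary cells 11.1% of all genes did not overlap. The mean level of Efnb2 was 191 CPM in arterial and 62.7 in capillary cells, and the part of zone make-up in its difference was not tested. The other 3 further targets tested in capillary cells had log2 fold changes above 0, at 0.08 (Nrarp), 0.17 (Hes6) and 0.22 (Hey2), and none of the 4 passed the adjusted threshold. For smooth muscle cells, Epn2 (ligand endocytosis), Spen (a corepressor of RBPJ) and Poglut1 (which adds glucose to Notch) had -0.26, -0.25 and -0.32. All ArcSwe mice lay below all WT mice for these 3 of the 42 list genes tested there and above them for 0, while 9.85% of all genes did not overlap in either direction. In veins the values were 1.04 for Hes6 and 0.37 for Kat2b, and in pericytes -0.45 for Crebbp and -0.35 for Dtx3.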

How the data were processed

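The deposited files were tables of raw counts of UMIs per gene and cell, which the authors made with Cell Ranger 7.0.0 on mm10 per the submitters' processing notes, with mouse Clec7a and human NOTCH3 sequences added to the reference. Each library was 1 mouse, and groups were read from the genotype labels. Cells with fewer than 500 or more than 4500 genes or with 10% or more mitochondrial counts were left out. The most variable 2000 genes, without the Notch genes, gave 30 principal components, and Leiden clusters at resolution 1 (leidenalg 0.10.2) were named from marker lists with thresholds that were set after the data were seen. Clusters of mixed markers stayed unnamed (1580 cells at the first step, then 608 endothelial and 606 mural cells). Neither a doublet caller nor an integration of libraries was run. Because of microglial transcripts, 5542 of 30246 endothelial cells, in which Cx3cr1 or Aif1 was detected, were left out.

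Counts were summed per mouse and class. Mitochondrial, ribosomal protein and pseudogene features, those with Rik names and human NOTCH3 (2850 in all) were removed before testing. Levels are CPM of the remaining genes, with no length correction because UMIs count one end of each transcript. Genotypes were compared with edgeR 4.0.16 (R 4.3.3) after its low-count filter and TMM scaling, with log2 fold changes of ArcSwe over WT and p-values adjusted over all genes tested in a class. The class by genotype interaction was fitted with the mouse as a block. The scripts were tested on simulated data with known changes.

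The genes, the list of 56 further pathway genes and the tests were chosen with earlier results of these data known. Named from that list were genes past the adjusted threshold and, in each class, the 3 with the lowest p. A gene of the list that this rule named is not reported here. Alternatives were DESeq2 1.42.0, RLE scaling, no low-count filter, a replicate block, each mouse left out, stricter cell filters (1000 genes, under 5% mitochondrial counts), other handling of microglial transcripts and clusters at resolution 2. Single zones, and fits without both mice numbered 3, were added after seeing the data. The summed UMIs per mouse were 2080924 to 6406973 in arterial, 7600680 to 15731899 in capillary and 331090 to 1427724 in venous endothelial cells, 1526480 to 4237718 in smooth muscle cells and 54127 to 361713 in pericytes.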

Additional observations from a re-analysis of the deposited data

How the results depend on the processing

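Over 98 alternatives to the genotype comparisons, 0 Notch genes passed the adjusted threshold in each, and the lowest adjusted p of any of them was 0.0724 (Hey1, capillary cells, DESeq2). Of 212 alternative log2 fold changes for 15 named gene and class pairs, 7 turned direction. Hey1 in capillary cells was 0.080 in mid-capillary cells alone, a zone that holds part of the cells. Notch3 in pericytes was -0.057 under the other handling of microglial transcripts, and the cause was not tested. With 1 mouse left out, Notch3 in pericytes ran from -0.045 to 0.23 (negative without WT mouse 1, WT mouse 2 or ArcSwe mouse 1), Hes1 in pericytes from -0.12 to 0.93 and Hes1 in smooth muscle cells from -0.12 to 0.43. Hey1 in capillary cells ran from -0.65 to -0.48. The 6 genes higher in arterial than venous cells in all 6 mice (Notch1, Notch4, Dll4, Jag1, Jag2 and Hey1) also numbered 6 under stricter cell filters and at clustering resolution 2.

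Calls over all genes, none of them among the 10, depended more on the fit. DESeq2 called 12, 11 and 14 genes in all endothelial, arterial and capillary cells against 0 by edgeR. Without the low-count filter edgeR called 75 genes in arterial, 36 in venous and 76 in smooth muscle cells and 3 in pericytes. The labels number mice 1 to 3 in each genotype but say nothing of a shared day or litter. Deviations of same-numbered mice correlated at 0.13 to 0.45 for number 1, -0.20 to 0.10 for number 2 and -0.06 to 0.40 for number 3. What same-numbered mice share beyond the number was not tested. With a replicate block, 6 genes in arterial and 2 in venous cells were called and 0 in the other 4 classes, and the log2 fold change of Hey1 in capillary cells was -0.56 (edgeR adjusted p = 0.408). Without both mice numbered 3, 2 genes were called in endothelial and 20 in smooth muscle cells. Depth limits pericytes most, where 5 of the 10 genes could be tested.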

Other observations

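Several pathway genes outside the 10 had distributions of their own along the vessel wall (chosen after their values were seen, and given as descriptions). Dll1, a Delta ligand, was venous, at 45.9 ± 6.04 CPM (SD, n = 6 mice) in venous endothelial cells against 8.29 ± 1.63 in arterial and 8.36 ± 1.75 in capillary cells, the reverse of Dll4. Lfng, a fringe enzyme that modifies Notch receptors, had the same direction, with 73.5 ± 16.1 in venous, 34.7 ± 1.68 in capillary and 26.6 ± 6.66 in arterial cells.

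Hey2, the third of the Hey repressors, was mural, with 159.9 ± 16.7 CPM in smooth muscle cells and 111 ± 32.1 in pericytes against 12.3 ± 2.59 in arterial and 1.84 ± 0.442 in capillary endothelial cells. Nrarp, a feedback inhibitor that Notch induces, was at 141 ± 15.0 in smooth muscle cells, 116 ± 64.4 in pericytes and 53.1 ± 8.26 in arterial, 23.9 ± 3.78 in capillary and 15.7 ± 4.73 in venous endothelial cells. Notch2 was highest in smooth muscle cells, at 89.4 ± 13.8, with 14.4 ± 3.39 in arterial endothelial cells, so by the means smooth muscle cells were the class with the least Notch1 and the most Notch2. In pericytes Notch2 was at 47.9 ± 45.3, from 27 UMIs.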
